A study of Homo sapiens with 4 samples.

Results

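Some places in the genome carried a well scored peak in one HNF1 ChIP-seq library of Caco2 cells and no peak nearby in the other. The peaks described here scored 12 or more in one deposited list and had no peak of the other list within 500 bp, measured edge to edge, with chromosomes X and Y left out. There were 999 of them among the 10015 peaks of both lists, 567 in replicate 1 and 432 in replicate 2. They made up 21.7% of the 2613 autosomal peaks scoring 12 or more in replicate 1, and 18.8% of the 2298 in replicate 2. Among autosomal peaks scoring under 12 the corresponding shares were 62.4% and 59.7%. The one-list peaks were selected on score and on distance to the other list, so both are given as descriptions, with no test.

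The study used Caco2, an established human colorectal adenocarcinoma line grown in low glucose medium with 10% serum, with no treatment and no genetic change named in the labels. The groups were 2 HNF1 immunoprecipitations and 2 input libraries made without antibody, and each immunoprecipitation came with 1 peak list called against the input of the same number. Nothing in the labels says that the replicates were separate cultures, so differences between the lists compare 2 libraries. The antibody field names HNF1, whereas the extraction text of the same libraries names FOXA2, and the peaks are called HNF1 peaks here after the antibody field.

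HNF1, hepatocyte nuclear factor 1, is a homeodomain transcription factor that binds DNA as a dimer at a palindromic site. In intestine and liver it is known for activating digestive enzyme, transporter and metabolic genes. FOXA2 is a forkhead factor that binds a different sequence and often occupies the same regulatory elements in gut-derived tissue. Gene annotation and sequence in the hg19 build of the lists were not used here, so the peaks are given by hg19 position only, counted from 1.

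The depth was 11931439 tags for replicate 1 against 18469659 for replicate 2. The score deposited with a peak is its number of tags per 10000000 tags of the library, as a whole number. A score of 12 therefore stood for about 14.3 tags of the first library and 22.2 of the second, and the same score rests on fewer counted tags in replicate 1. Peaks were 143 bp wide in replicate 1 and 227 bp wide in replicate 2. Equal scores of the 2 lists therefore refer to stretches of unlike width, which limits any comparison of scores between the lists.

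Most one-list peaks scored just above the limit. Replicate 1 had a median of 14 with quartiles of 13 and 18, and replicate 2 a median of 14 with quartiles of 13 and 16. Shared peaks of the same score range, meaning those that overlap a peak of the other list, had a median of 20 (quartiles 15 and 29) over 2013 peaks of replicate 1, and of 18 (quartiles 14 and 24) over 1845 peaks of replicate 2. A score of exactly 12 was held by 113 one-list peaks of replicate 1 and 80 of replicate 2, and 140 and 152 peaks that met the distance rule fell just outside with a score of 11. The remaining peaks of this score range, 33 in replicate 1 and 21 in replicate 2, lay near a peak of the other list without overlapping it and were counted in neither set.

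**Figure D1:**
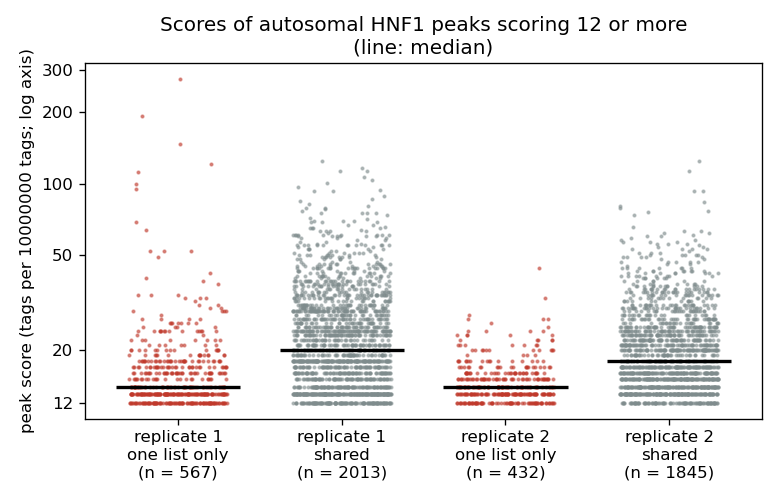
Score of each autosomal peak scoring 12 or more (log axis, tags per 10000000 tags), by list and by whether the peak stood in one list only or was shared; lines mark medians. Most one-list peaks sit near 12, while replicate 1 has 12 one-list peaks at 50 or more and replicate 2 has none.

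The one-list share differed between score classes. In every class it was lower in replicate 2. At scores of 16 to 19 it was 24.1% in replicate 1 (Wilson 95% interval 20.6% to 27.9%). In replicate 2 it was 15.98% in that class (12.98% to 19.5%), and the intervals did not overlap. In all other classes, including those of 30 to 49 and of 50 or more, the intervals of the lists overlapped. In replicate 1 the one-list share fell from 39.9% of the 659 peaks scoring 12 to 13 (Wilson 95% interval 36.2% to 43.7%) to 4.22% of the 379 peaks scoring 30 to 49 (2.62% to 6.75%). Above that it stood at 10.2% of the 118 peaks scoring 50 or more (5.91% to 16.9%), and the intervals of these 2 classes overlapped. In replicate 2 the share went from 38.4% of 495 peaks (34.2% to 42.7%) in the lowest class to 0.905% of 221 (0.249% to 3.24%) at 30 to 49. None of the 43 replicate 2 peaks scoring 50 or more stood in one list only, with a Wilson upper limit of 8.20%, while the limit of 3 counts that a count of 0 allows is 6.98%. These intervals and this limit cover counting error only and treat neighbouring peaks as independent.

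**Figure D2:**
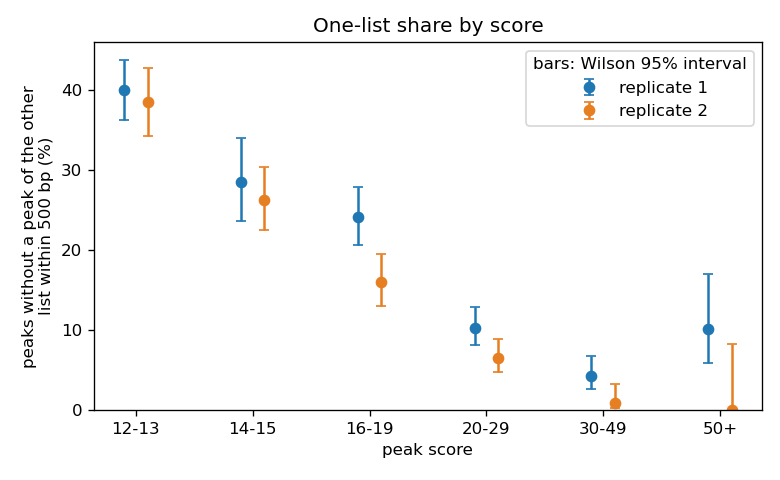
Percent of autosomal peaks in each score class that had no peak of the other list within 500 bp, with Wilson 95% intervals. Both lists fall with score, and replicate 1 stands at 10.2% again in the class of 50 or more.

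The 12 one-list peaks of replicate 1 that scored 50 or more lay at 9 places. The first is a group of 3 peaks within 1985 bp on the short arm of chromosome 21. Its members scored 121 at chr21:9825524-9825666, 112 at chr21:9825986-9826128 and 275 at chr21:9827366-9827508, the last being the highest score of the whole list. Scaled back, these scores correspond to about 144, 134 and 328 tags. No peak of replicate 2 came within 6.42 Mb of the group. The first replicate 2 peak of this chromosome was itself a one-list peak, at chr21:16250125-16250351 with a score of 13. Replicate 1 had 3 further peaks in the stretch between, scoring 8, 9 and 13, and the one of 13 at chr21:11140300-11140442 met the rule as well. In hg19 this part of chromosome 21 is known for sequence that resembles the ribosomal RNA genes, which exist in many copies.

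A pair on chromosome 20 was the second group at this height. Its peaks scored 52 at chr20:26188984-26189126 and 64 at chr20:26189954-26190096. They formed the left border of the widest stretch of chromosome 20 without a peak of either list, which measured 3.34 Mb and, as background, lies over the centromere. The right border was a pair of replicate 2 alone, with scores of 18 at chr20:29532537-29532763 and 16 at chr20:29533036-29533262. Thus each side of the gap had a pair from a different library. The nearest replicate 1 peak to the right hand pair scored 9 at chr20:29600522-29600664.

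The other 7 places held a single peak each. The peak at chr12:20704355-20704497 scored 192 and that at chr17:33478123-33478265 scored 147, which are ranks 2 and 3 of the replicate 1 list. A score of 100 was reached at chr5:71146821-71146963 and one of 95 at chr2:230045501-230045643. The last 3 scored 69 at chr1:156186326-156186468, 52 at chr2:133011902-133012044 and 52 at chr19:36066479-36066621. Published lists of hg19 regions that give high signal in many unrelated ChIP-seq experiments include ribosomal RNA gene copies on several of these chromosomes. No such list was used here, and a part of repeated sequence in these scores was not tested.

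The surroundings of these 7 peaks varied. The nearest peak of replicate 2 was 14.6 kb away for the chromosome 2 peak with the score of 95, and 29.97 kb away for the chromosome 1 peak. It was 533 kb away for the chromosome 12 peak. The nearest replicate 2 peak scored 27 beside the chromosome 12 peak, 13 beside that of chromosome 17, and 8 to 10 beside the other 5. Within replicate 1 the closest neighbour was between 53.5 kb away, for the chromosome 12 peak, and 1332 kb away, for the chromosome 2 peak with the score of 95.

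Below a score of 50, the highest scored one-list peak of replicate 1 outside groups lay at chr11:118065949-118066091 and scored 49. Unlike the 7 single peaks above, it had a peak of both lists close by, a shared site 7.42 kb away in replicate 1, whose region in replicate 2 scored 20. In total 28 one-list peaks of replicate 1 scored 30 or more, against 2 of replicate 2. Replicate 1 also had more autosomal peaks of this height, one-list or not. It had 379 scoring 30 to 49 and 118 scoring 50 or more, against 221 and 43 in replicate 2.

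Outside groups, the highest scored one-list peaks of replicate 2 reached lower scores than those of replicate 1. The best, at chr1:234953170-234953396, scored 44 and ranked 60 in its list, and its nearest replicate 1 peak scored 12 at a distance of 90.2 kb. The next, at chr5:124362881-124363107, scored 33 and lay 9.18 kb from a shared site. Scores of 27 followed at chr2:86573185-86573411, chr3:118259403-118259629 and chr11:85920983-85921209. The next were 26 at chr3:129520898-129521124 and 25 at chr2:223768361-223768587. A score of 24 was shared by 3 peaks outside groups, of which that at chr2:151062372-151062598 was taken as the eighth by chromosome order. Over the 8 named, distances to the nearest replicate 1 peak ran from 1.16 kb for the last of these to 946 kb for the chromosome 3 peak with the score of 26. The 2 tied peaks lay 2.14 kb and 988 kb from a replicate 1 peak. All 8 nearest replicate 1 peaks scored 13 or less, with a lowest score of 8.

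Few one-list peaks formed groups. With a gap of up to 10 kb between neighbours, replicate 1 had 7 groups holding 15 of 567 peaks (2.65%) and replicate 2 had 10 groups holding 20 of 432 (4.63%). All groups other than that on chromosome 21 were pairs. The highest scored pair of replicate 2 lay on chromosome 1, with 28 at chr1:17091490-17091716 and 12 at chr1:17093591-17093817, and its nearest replicate 1 peak was 0.586 Mb away. A replicate 2 pair on chromosome 11 scored 24 at chr11:116943337-116943563 and 21 at chr11:116948099-116948325. A replicate 1 pair on chromosome 20 scored 22 at chr20:34670490-34670632 and 25 at chr20:34671199-34671341. No peak of the pairs not named scored above 22.

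The spacing of one-list peaks along the genome was set beside that of the shared peaks scoring 12 or more. The median gap to the nearest peak of the same list was 84.5 kb for one-list peaks of replicate 1 (95% interval of the median 69.8 to 102 kb) and 73.5 kb for its shared peaks (64.3 to 81.4 kb). In replicate 2 the medians were 51.6 kb (40.6 to 59.4 kb) and 62.1 kb (53.5 to 71.0 kb). The intervals overlapped within each list, and the order of the medians was opposite in the 2 lists. These intervals come from the ranks of the peaks and treat peaks as independent, which neighbouring peaks are not.

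**Figure D3:**
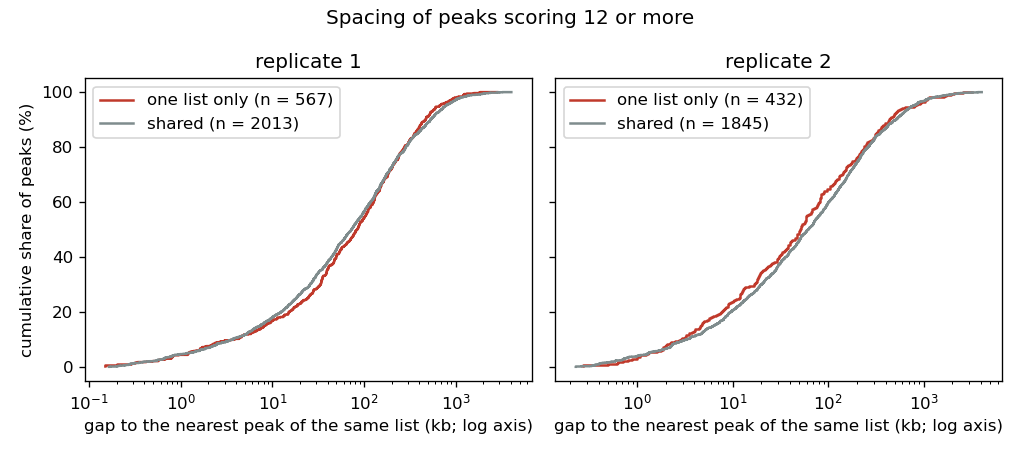
Cumulative percent of peaks scoring 12 or more by the gap to the nearest peak of the same list (kb, log axis), for one-list and shared peaks of each replicate. The curves of one-list and shared peaks run close together in both lists, with medians of 84.5 and 73.5 kb in replicate 1 and 51.6 and 62.1 kb in replicate 2.

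Shared sites served as a further landmark. As landmarks, peaks overlapping a peak of the other list were taken at any score, also under 12. Of the one-list peaks, 10.2% in replicate 1 (58 of 567, interval 7.997% to 12.997%) and 14.1% in replicate 2 (61 of 432, 11.2% to 17.7%) had a shared peak of their own list within 10 kb. Among shared peaks scoring 12 or more, 10.8% (217 of 2013, 9.50% to 12.2%) and 12.8% (236 of 1845, 11.3% to 14.4%) had another shared peak of any score that close. The intervals of one-list and shared peaks overlapped in each list.

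The nearest peak of the other list was mostly far away. Its median distance was 107 kb in replicate 1 (92.0 to 126 kb) and 64.2 kb in replicate 2 (52.0 to 76.7 kb). Only 50 one-list peaks of replicate 1 (8.82%) and 45 of replicate 2 (10.4%) had one within 5 kb, and 29 and 16 had none within 1 Mb. Just inside the distance rule were the replicate 1 peak at chr12:92465024-92465166, with a gap of 581 bp and a score of 12, and the replicate 2 peak at chr7:116450457-116450683, with a gap of 574 bp and a score of 17. Just outside it were the replicate 1 peak at chr6:31707249-31707391, with a gap of 492 bp and a score of 13, and the replicate 2 peak at chr1:179256587-179256813, with a gap of 450 bp and a score of 15.

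Some one-list peaks had a one-list peak of the other library nearby. Of replicate 1, 2 had one within 10 kb and 30 (5.29%) within 100 kb, whereas 72 (12.7%) and 269 (47.4%) had any replicate 2 peak that close. Of replicate 2, 3 had one within 10 kb and 33 (7.64%) within 100 kb, against 79 (18.3%) and 264 (61.1%) for any replicate 1 peak. One-list peaks are the smaller part of each list, so lower counts follow from their number. In the closest case, on chromosome 15, the replicate 1 peak at chr15:96804898-96805040 scored 17 and the replicate 2 peak at chr15:96808393-96808619 scored 12, with 3352 bp between them. The same replicate 1 peak had a second one-list peak of replicate 2 beside it, at chr15:96797507-96797733 with a score of 14. On chromosome 12 the scores were 24 at chr12:14361016-14361158 and 17 at chr12:14352756-14352982.

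The 2 libraries differed in the chromosomes on which their one-list peaks lay. On chromosome 20, 41 of the 111 replicate 1 peaks scoring 12 or more stood in that list only, or 36.9% (28.5% to 46.2%), against 21.7% over all autosomes. In replicate 2 the count was 8 of 67, or 11.9% (6.18% to 21.8%). Chromosome 20 thus held 7.23% of the one-list peaks of replicate 1 (5.37% to 9.66%) and 3.43% of its shared peaks (2.72% to 4.32%), while in replicate 2 it held 1.85% (0.941% to 3.61%) and 3.20% (2.49% to 4.10%). An excess of replicate 1 peaks on this chromosome was already known from the full lists, so its one-list peaks add their positions and scores and no separate evidence. In the 5 Mb between 30 and 35 Mb, 10 of 19 replicate 1 peaks scoring 12 or more stood in that list only, and none of 10 in replicate 2. Their scores ran from 12 at chr20:34824249-34824391 to 25, reached at chr20:34671199-34671341 and chr20:34693623-34693765. Between 45 and 50 Mb the counts were 9 of 19 and 1 of 11. Both windows were chosen by their count of replicate 1 one-list peaks.

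Chromosome 11 stood above the share over all autosomes in both lists, which was 21.7% in replicate 1 and 18.8% in replicate 2. Its one-list share was 27.7% in replicate 1 (53 of 191, 21.9% to 34.5%) and 26.1% in replicate 2 (47 of 180, 20.2% to 32.98%). This was the highest share of the 22 autosomes in replicate 2, and in replicate 1 chromosomes 20 and 19 were higher. The next counts are of peaks scoring 12 or more, in the window of this chromosome with the most one-list peaks of each library. Between 115 and 120 Mb replicate 1 had 10 one-list peaks among 16, including those of 49 named above, of 31 at chr11:119774201-119774343 and of 29 at chr11:119056032-119056174, and replicate 2 had 4 among 10. Between 85 and 90 Mb replicate 2 had 7 among 10, and replicate 1 had 2 among 5. Of those 7, 5 lay between chr11:85642112-85642338 and chr11:85920983-85921209 and scored 13 to 27. Each window was chosen by its count in 1 library. A higher count of that library there was thus partly built in, and no difference between the libraries is read from it. Over 519 windows of 5 Mb with any peak scoring 12 or more, 210 held no one-list peak of replicate 1 and 273 none of replicate 2.

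Replicate 2 had few one-list peaks on 5 of the smaller chromosomes. Chromosomes 16, 17, 18, 19 and 22 together held 15 of its 432 (3.47%, 2.12% to 5.65%) but 171 of its 1845 shared peaks (9.27%, 8.03% to 10.7%). In replicate 1 they held 71 of 567 one-list peaks (12.5%, 10.0% to 15.5%) and 230 of 2013 shared peaks (11.4%, 10.1% to 12.9%). On chromosome 19 the one-list share was 29.5% in replicate 1 (13 of 44, 18.2% to 44.2%) and 4% in replicate 2 (1 of 25, 0.710% to 19.5%). On chromosome 22 it was 14.6% (6 of 41, 6.88% to 28.4%) and 4.35% (1 of 23, 0.772% to 20.99%), with overlapping intervals. These 5 chromosomes were grouped after their counts were seen, and peaks of 1 library are not replicates of a condition.

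**Figure D4:**
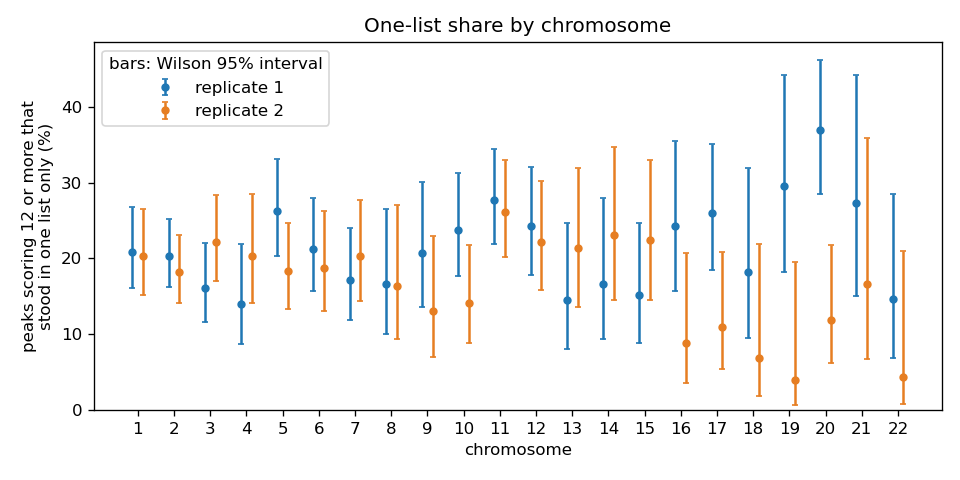
Percent of peaks scoring 12 or more on each autosome that stood in one list only, by replicate, with Wilson 95% intervals. Chromosome 20 reaches 36.9% in replicate 1 against 11.9% in replicate 2, and chromosome 11 stands at 27.7% and 26.1%.

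The score level of the shared peaks varied over the same chromosomes. Shared peaks scoring 12 or more also count in the denominator of the one-list share, so the share and this score level are not independent. A shared pair here was a replicate 1 peak of any score and the replicate 2 peak that it overlapped. Pairs scoring under 12 were included. The median log2 ratio of replicate 1 to replicate 2 scores in shared pairs was 0.61 on chromosome 22 and 0.39 on chromosome 17. It was 0.37 on chromosome 19, 0.36 on chromosome 16 and 0.33 on chromosome 18. It was 0.00 on chromosomes 2, 4 and 5. Over the 22 autosomes, the one-list share of replicate 2 fell as this ratio rose, with a rank correlation (Spearman's rho) of -0.65 and a Pearson's r of -0.77. Without chromosomes 17 and 22, which lay farthest from the median ratio, rho was -0.55 and r was -0.70. For the one-list share of replicate 1, rho was 0.30 and r was 0.18. Without chromosomes 17 and 22 these rose to 0.44 and 0.41. The points are chromosomes of the same 2 libraries, share the score scale and the limit of 12, and differ in their number of peaks, so the values are descriptions.

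**Figure D5:**
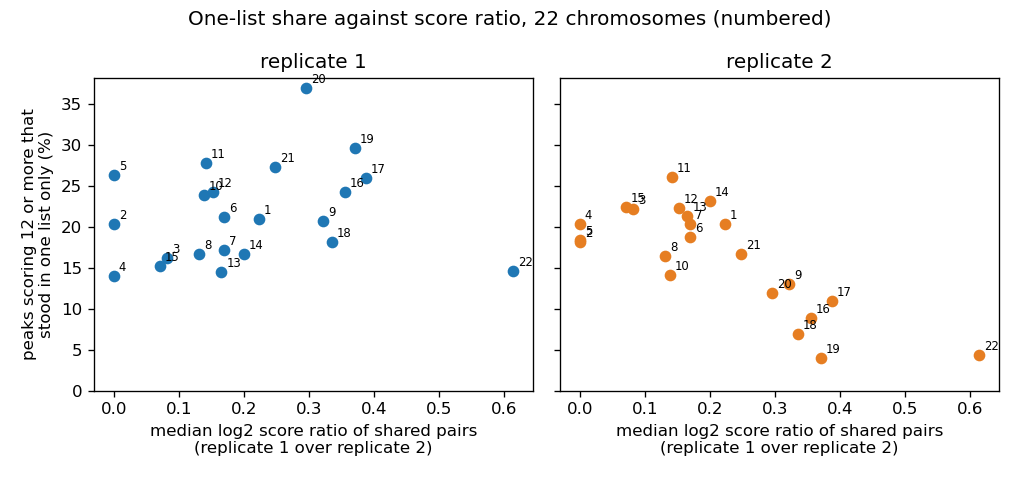
Percent of peaks scoring 12 or more that stood in one list only (y axis), for the 22 numbered autosomes. The x axis is the median log2 score ratio of shared pairs of any score, replicate 1 over replicate 2. In replicate 2 chromosomes 16, 17, 18, 19 and 22 sit at low shares and high ratios (rho -0.65), and in replicate 1 rho is 0.30.

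A missing peak does not show that the other library lacked tags at that place. Comparison with the input removed 1161 of 6297 putative peaks in replicate 1 and 3094 of 8280 in replicate 2, per the file headers, and the part of this removal in the one-list peaks was not tested.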

How the data were processed

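The deposited lists give HOMER peaks of each HNF1 library. HOMER findPeaks was run per library in factor mode against an input, per the file headers, at a false discovery rate of 0.001 and at least 4-fold over input and over the local 10000 bp. The headers give tag thresholds of 9 and 13 and fragment lengths of 76 and 226 bp for replicates 1 and 2. Bowtie 1.0.0, HOMER 1.2 and hg19 are named in the submitters' processing notes without roles. The score deposited by the authors is the tag count scaled to 10000000 tags and rounded, and was used to choose and rank peaks within a list.

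Peaks were selected by the rule given in the report, and shares carry Wilson 95% intervals, medians an order-statistic interval. The rule for named places took the 8 highest scored peaks of each list outside groups and the 3 largest groups. Other places were named after their values were seen. The selection rule and the comparisons were chosen with earlier results of these data known. Membership and grouping were tested on simulated lists. No significance test was run, since each replicate has 1 list and the rule uses both. Planned base composition, motif, gene position and gene list results were not analysed here. Computations used Python 3.11.15, numpy 2.4.6, pandas 2.3.3, scipy 1.17.1, statsmodels 0.14.6 and matplotlib 3.10.9.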

Additional observations from a re-analysis of the deposited data

How the results depend on the processing

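Of 54 values recomputed under other settings, 48 stayed within 1.5 times the count or inside the interval of the value reported. The other 6 were counts. A score minimum of 10 gave 880 one-list peaks in replicate 1 and 792 in replicate 2, and one of 15 gave 246 and 171. A gap of up to 50 kb put 41 and 47 one-list peaks into groups. The chromosome shares and median distances stayed inside their intervals with a score minimum of 15 and without grouped peaks, and the chromosome shares also with a distance over 5000 bp. Some of the 48 could not move. In replicate 2 no one-list peak scored 50 or more, so leaving such peaks out changed nothing. The median score of the replicate 2 list was 11, so a limit above that median was again 12 in whole numbers. Settings without the peaks scoring 50 or more, and those on chromosomes 16, 17, 18, 19 and 22, were chosen after seeing the data. No paired analysis was possible because each immunoprecipitation has a single list and the rule needs both, which also prevents leaving out a replicate. Settings for base composition, motifs and genes were not run. At the limit of 12, replicate 1 rests on about 14.3 tags per peak, so scores near it are imprecise.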
